A study of Rattus norvegicus with 6 samples.

Results

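The Toll-like receptor genes Tlr1, Tlr2, Tlr3, Tlr4, Tlr5, Tlr6, Tlr7, Tlr9, Tlr10 and Tlr11 were measured in rat renal cortex by every array probe assigned to a RefSeq transcript of these 10 genes. All 10 genes had a probe: 7 were read by 1 probe and 3 (Tlr3, Tlr5 and Tlr9) by 2, which gave 13 of the 61657 non-control probes of the array. The animals were male Crl:CD(SD) Sprague-Dawley rats that were 5 weeks old when bought and ate a basal diet. The control group (n = 3) was given water and the treated group (n = 3) N-nitrosodimethylamine (NDMA), a nitrosamine that the body turns into a DNA-methylating agent, at 4 mg/kg/day, both for 4 weeks. Cortex RNA of each animal was labelled with Cy3 and hybridised to 1 Agilent array.

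Toll-like receptors are membrane proteins that recognise microbial molecules, and also molecules released by damaged cells, through a horseshoe of leucine-rich repeats. At the cell surface Tlr2 pairs with Tlr1 or Tlr6 to bind bacterial lipopeptides, Tlr4 binds lipopolysaccharide with its partner MD-2, and Tlr5 binds flagellin. Tlr3, Tlr7 and Tlr9 sense nucleic acids in endosomes, and signals pass through the adaptors MyD88 or TRIF to NF-kappaB and interferon regulatory factors. In the kidney these receptors are carried by resident and infiltrating leukocytes and some of them also by tubule cells.

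Each array gave well above background signals for between 43016 and 46248 probes. The 3 controls and NDMA animal 1 shared slide 1, whereas NDMA animals 2 and 3 were on slide 2 and in another scan. Renal cortex markers were present on every array: all 7 proximal tubule genes, among them the phosphate transporter Slc34a1 and the anion transporter Slc22a6, were well above background in all 6 animals. Signals are given below as log2 of the processed signal relative to the 75th percentile of its array, so that 0 is the signal of the 75th percentile probe. Signals of different receptor genes are not compared, since a probe's brightness also depends on its sequence. Summed marker signals, given further below, weigh each probe by its brightness and are read only between the groups. Differences are NDMA minus control on this log2 scale with the moderated standard error of limma (n = 3 animals per group), and adjusted p-values are Benjamini-Hochberg values over the 31915 features tested.

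Tlr10, Tlr11, Tlr1 and Tlr6 rose in the cortex of NDMA-treated rats, and none of the other members passed the test in either direction. The rises were 3.54-fold for Tlr10 at its bound (explained below), 3.37-fold for Tlr11, 1.90-fold for Tlr1 and 1.82-fold for Tlr6. In whole tissue, more cells of a type and more RNA per cell cannot be told apart. Of the 10 genes, 9 entered the test, 8 with a probe detected well above background in all 6 animals and Tlr10 through the NDMA group alone, which by itself requires a difference. Called higher were 4 of these 9, against 2.52% of all features tested, and 3 of the 8 measured on all arrays, against 2.23% of all features so measured. None was called lower in limma (0.476% of all features were), and none had a difference below 0 at an unadjusted p under 0.05. Of the 8 measured on all arrays, 6 had a difference above 0, against 40.5% of all features so measured. In 5 of the 8 the groups did not overlap, each time with NDMA above control. Over all features so measured the groups did not overlap in 27.3%, with NDMA above control in 10.5% and below it in 16.8%. The median difference of the 8 was 0.64, against -0.05 over all features.

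**Figure D1:**
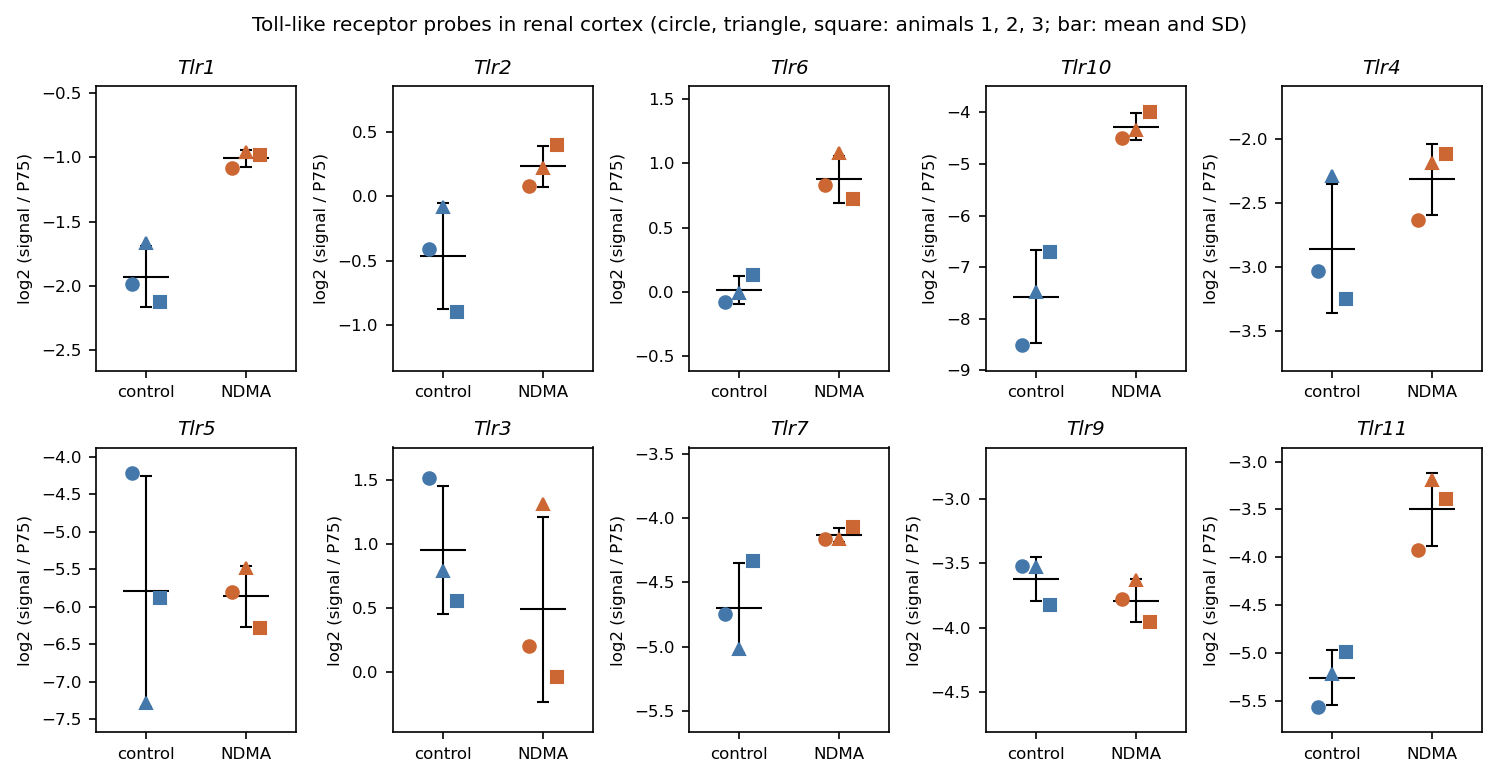
Log2 signal of the brightest probe of each gene relative to the array's 75th percentile (y axis, its own range in each panel) in the 3 control and 3 NDMA animals, with mean and SD. The NDMA animals lie above all controls for Tlr1, Tlr2, Tlr6, Tlr7, Tlr10 and Tlr11, and the groups overlap for Tlr3, Tlr4, Tlr5 and Tlr9.

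Tlr10 belongs to the Tlr1 subfamily, is best known from B cells and dendritic cells, and is a degraded gene in the mouse but annotated as protein-coding in the rat. Its probe gave log2 signals of -8.51, -7.49 and -6.71 in controls 1 to 3 and of -4.49, -4.35 and -3.99 in NDMA animals 1 to 3. As processed intensities these were 2.86, 5.54 and 9.84 in the controls and 46.7, 64.4 and 81.9 after NDMA. No control had a signal well above background and all 3 NDMA animals did, and the lowest signal well above background on an array was between 12.8 and 16.9. The 9.80-fold ratio of the means is therefore not a measured fold. With each control raised to that lowest signal where its own was below it, the ratio was 3.54-fold (log2 1.83), used as a bound. Spots brighter than that lowest signal can still fail to be well above background, so the bound is not a strict lower limit. The fitted difference was 3.29 ± 0.44, with an adjusted p of 0.0176 in limma. With normexp background correction, which adds an offset to every spot, the fitted difference was 0.66 (adjusted p = 0.0146).

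Tlr11, which in the mouse recognises profilin of protozoa and is known from kidney and bladder, was dim but measured on every array. Its log2 signals were -5.56, -5.22 and -4.99 in controls 1 to 3 and -3.92, -3.19 and -3.39 in NDMA animals 1 to 3, so the groups were more than a log2 unit apart. The difference was 1.75 ± 0.23 (adjusted p = 0.0168). With normexp it was 0.62 and did not pass (adjusted p = 0.0527).

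Tlr1 and Tlr6, the alternative partners of Tlr2, changed by similar amounts. Tlr1 had log2 signals of -1.99, -1.67 and -2.13 in the controls and of -1.08, -0.96 and -0.98 after NDMA, a difference of 0.93 ± 0.13 (adjusted p = 0.0231). Tlr6 had -0.08, -0.01 and 0.13 in the controls and 0.83, 1.08 and 0.72 after NDMA, a difference of 0.86 ± 0.12 (adjusted p = 0.0209). The gap between the groups was wider than the range within either group for both genes. Tlr2 itself had log2 signals of -0.41, -0.08 and -0.90 in the controls and of 0.08, 0.22 and 0.40 after NDMA. Its groups did not overlap either, but control 2 came close to NDMA animal 1, and the difference of 0.70 ± 0.22 (1.63-fold, 95% interval 0.18 to 1.22) did not pass (adjusted p = 0.167).

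**Figure D2:**
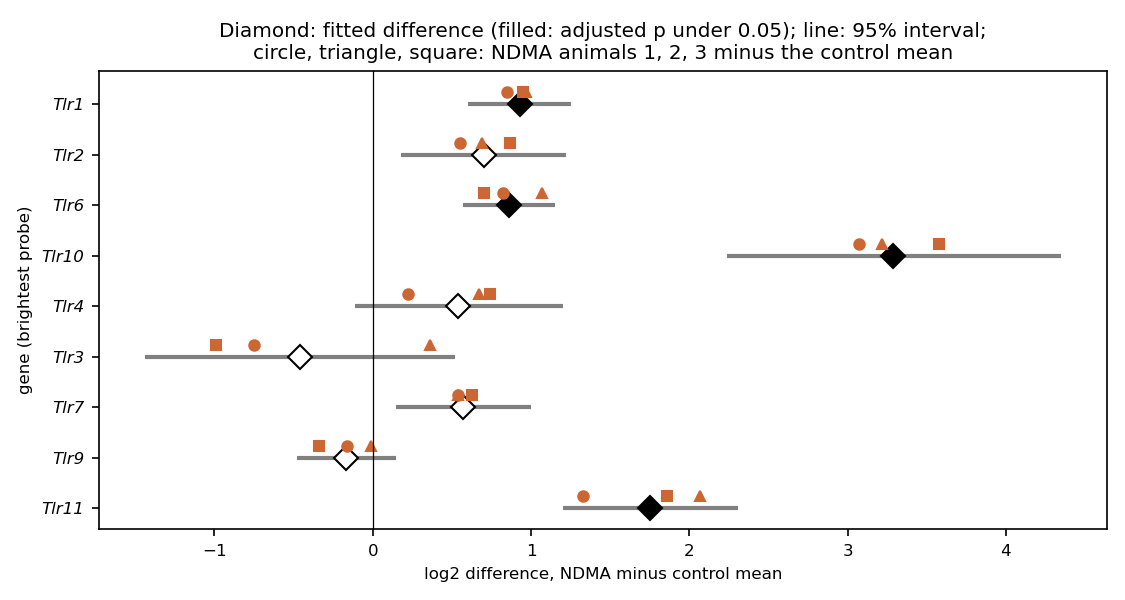
Log2 difference of 9 receptor genes (x axis, NDMA minus control; Tlr5 was not tested) with its 95% interval, and each NDMA animal minus the control mean, with Tlr10 at its fitted value. Filled diamonds mark Tlr1, Tlr6, Tlr10 and Tlr11, which passed; NDMA animal 1, on the controls' slide, is above the control mean for 7 of the 9 genes and below it for Tlr3 and Tlr9.

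Tlr6, Tlr1 and Tlr10 are direct neighbours on chromosome 14 in the RefSeq gene order of assembly GRCr8, in that order, and are close paralogs, so binding of a relative's transcript to their probes cannot be told apart from their own signal here. In each of these 3 genes every NDMA animal exceeded every control. Tlr7 and Tlr8 are likewise neighbours, on chromosome X, and Tlr11 stands between olfactory receptor genes on chromosome 15.

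The slide was partly shared between the groups. NDMA animal 1, on the slide of the controls, lay above the control mean by 3.07 for Tlr10, 1.33 for Tlr11, 0.85 for Tlr1 and 0.82 for Tlr6, which are also the differences with the slide as a block. None of the 4 passed in these fits, with adjusted p-values in limma of 0.184, 0.135, 0.221 and 0.200 with the block and of 0.281, 0.201, 0.306 and 0.167 on slide 1 alone. Without the filter on dim probes the 4 adjusted p-values were 0.0526, 0.0517, 0.0696 and 0.0652. The calls also depended on single animals. Tlr10 was lost without control 2 (adjusted p = 0.0579), NDMA animal 2 (0.0717) or NDMA animal 3 (0.0725). Tlr11 was lost without control 1 (0.0549), control 2 (0.0567), NDMA animal 2 (0.0568) or NDMA animal 3 (0.0706). Tlr6 was lost without control 1 (0.0846), control 2 (0.0743) or NDMA animal 1 (0.0527). Tlr1 passed without control 2 (0.0205) and in none of the other 5 such fits, with adjusted p-values of 0.0904 without control 1, 0.0563 without control 3 and 0.0531, 0.0870 and 0.0835 without NDMA animals 1 to 3. The log2 differences in these 6 fits ran from 2.82 to 3.72 for Tlr10, 1.60 to 1.96 for Tlr11, 0.82 to 1.06 for Tlr1 and 0.76 to 0.94 for Tlr6.

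The promoters of the 4 genes that rose are shown because these genes rose together, and that of Tlr2 because it is the common partner of Tlr1 and Tlr6. They were taken from RefSeq (assembly GRCr8) as 250 bases before to 50 bases after a transcript start, written 5′ to 3′ on the gene's strand, and all 10 members had an entry. The start used lies 10060 bases inside the annotated gene for Tlr1, 6082 for Tlr10 and 274 for Tlr2, and at its first base for Tlr6 and Tlr11. Both strands were searched for the PU.1 site GAGGAAGT, the interferon response element core, the gamma-activated site TTCNNNGAA, the AP-1 site TGANTCA and the NF-kappaB site, and matches are in capitals. 
Tlr10, chr14:43764772-43765071, plus strand: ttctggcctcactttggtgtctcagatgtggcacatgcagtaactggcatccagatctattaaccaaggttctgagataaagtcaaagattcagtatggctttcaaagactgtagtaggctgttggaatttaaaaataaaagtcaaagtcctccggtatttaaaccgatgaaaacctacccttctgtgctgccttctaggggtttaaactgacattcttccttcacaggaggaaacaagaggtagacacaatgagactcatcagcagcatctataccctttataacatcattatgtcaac
Tlr11, chr15:26018737-26019036, plus strand: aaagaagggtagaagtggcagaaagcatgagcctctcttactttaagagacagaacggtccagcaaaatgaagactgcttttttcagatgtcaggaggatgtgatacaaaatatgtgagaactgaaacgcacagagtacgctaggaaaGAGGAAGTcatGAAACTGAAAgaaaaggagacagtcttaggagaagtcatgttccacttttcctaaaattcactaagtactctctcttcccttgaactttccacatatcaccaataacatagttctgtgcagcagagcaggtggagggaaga
Tlr1, chr14:43747571-43747870, plus strand: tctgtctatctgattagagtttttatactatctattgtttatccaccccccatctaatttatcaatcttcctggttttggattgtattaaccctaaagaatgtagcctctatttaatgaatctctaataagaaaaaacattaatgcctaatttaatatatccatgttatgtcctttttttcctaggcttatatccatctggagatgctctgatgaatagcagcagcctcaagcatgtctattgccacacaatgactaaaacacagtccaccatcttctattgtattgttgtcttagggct
Tlr6, chr14:43715559-43715858, plus strand: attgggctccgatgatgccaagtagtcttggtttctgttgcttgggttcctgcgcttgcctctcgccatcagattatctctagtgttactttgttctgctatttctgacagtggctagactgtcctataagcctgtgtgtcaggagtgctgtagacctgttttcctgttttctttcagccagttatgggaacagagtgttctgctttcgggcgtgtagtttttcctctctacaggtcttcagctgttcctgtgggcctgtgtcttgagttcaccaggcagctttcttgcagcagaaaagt
Tlr2, chr2:171504508-171504807, minus strand: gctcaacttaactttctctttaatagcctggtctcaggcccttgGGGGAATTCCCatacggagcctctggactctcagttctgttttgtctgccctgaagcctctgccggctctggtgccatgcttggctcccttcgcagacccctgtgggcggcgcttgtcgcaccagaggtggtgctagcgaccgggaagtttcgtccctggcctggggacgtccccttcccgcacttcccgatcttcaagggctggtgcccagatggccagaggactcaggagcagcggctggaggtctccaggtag

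The Tlr11 promoter held a PU.1 site followed after 3 bases by an interferon response element core (GAAACTGAAA), at positions -102 to -95 and -91 to -82 from the start. Of 33469 rat promoters of the same length, 2.42% held the first motif and 3.92% the second. The Tlr2 promoter held overlapping NF-kappaB sites on both strands between positions -206 and -196, a motif found in 4.18% of promoters. The windows taken for Tlr10, Tlr1 and Tlr6 held none of the 5 motifs. Those of Tlr10 and Tlr1 lie far inside the annotated gene, and the start used in renal cortex is not known here. Whether the promoters of these 2 genes lack the motifs was therefore not determined. Among the remaining members Tlr9 had an AP-1 site, found in 7.33% of promoters, and no member had the gamma-activated site, found in 8.87%. These matches are letters in a sequence, and binding was not measured.

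Of the surface receptors that did not pass, Tlr4, the lipopolysaccharide receptor, had log2 signals of -3.03, -2.29 and -3.25 in the controls and of -2.63, -2.19 and -2.12 after NDMA. Control 2 lay above NDMA animal 1, and the difference of 0.54 ± 0.27 (95% interval -0.11 to 1.20, adjusted p = 0.335) was 0.22 in NDMA animal 1 alone and 0.31 with normexp. Tlr5, the flagellin receptor, was not tested. The brighter of its 2 probes was well above background in 1 control and 2 NDMA animals, with log2 signals of -4.22, -7.29 and -5.88 in the controls and -5.81, -5.49 and -6.29 after NDMA, and the dimmer probe was well above background on none of the 6 arrays. A change of Tlr5 was not detectable at this signal.

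The endosomal receptors for nucleic acids did not pass. Tlr3, which binds viral RNA duplexes, was read by 2 probes. The brighter had 1.51, 0.79 and 0.55 in the controls and 0.20, 1.31 and -0.04 after NDMA, and the other had 1.26, 0.56 and 0.41 and then 0.22, 1.18 and 0.15. Control 1 and NDMA animal 2 were high by both probes, and the groups overlapped. The difference was -0.46 ± 0.41 by the brighter probe (95% interval -1.44 to 0.52, adjusted p = 0.570) and -0.23 ± 0.34 by the other (adjusted p over probes 0.748).

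Tlr7, a receptor for single-stranded RNA, had -4.75, -5.02 and -4.33 in the controls and -4.16, -4.16 and -4.07 after NDMA. The NDMA animals were closely grouped above all controls, and the difference of 0.57 ± 0.18 (1.48-fold, 95% interval 0.15 to 1.00) did not pass (adjusted p = 0.169) and was 0.11 with normexp. Tlr9, the receptor for unmethylated CpG DNA, had -3.52, -3.53 and -3.82 in the controls and -3.78, -3.63 and -3.96 after NDMA, a difference of -0.17 ± 0.13 (95% interval -0.48 to 0.15, adjusted p = 0.515). The groups overlapped. The other Tlr9 probe was well above background on none of the 6 arrays.

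**Figure D3:**
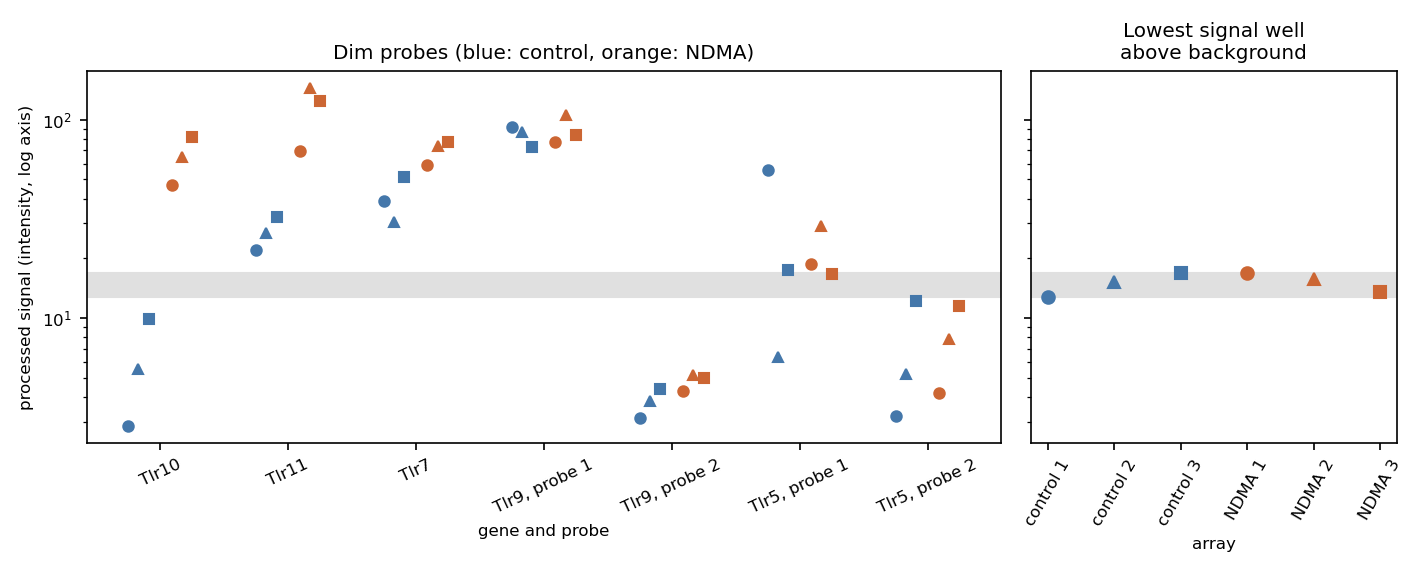
Processed signal (log axis, intensity) of the dim receptor probes in each animal, blue for control and orange for NDMA, with the lowest signal well above background of each array at the right and as a grey band. The Tlr10 controls lie below the band and the Tlr10 NDMA animals above it, whereas the second probes of Tlr5 and Tlr9 lie below it in every animal.

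Besides the 10 members, the receptors Tlr8 and Tlr12 had a probe. Tlr12, which in the mouse acts with Tlr11 in sensing profilin, had log2 signals of 2.07, 2.13 and 1.97 in the controls and of 1.54, 1.33 and 1.84 after NDMA. All NDMA animals were below all controls, opposite to Tlr11, but the difference of -0.48 ± 0.14 did not pass (adjusted p = 0.155). Over all features measured on all arrays, NDMA lay below control without overlap in 16.8%. Tlr8, an endosomal RNA receptor, differed by 0.37 ± 0.23 (adjusted p = 0.412), and no probe was matched by name to Tlr13.

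The genes that work with these receptors were read from 9 lists with 116 genes, of which 93 were tested. By the limma test 10 of them rose and 0 fell, their median log2 difference was 0.10, and 34 had an unadjusted p below 0.05. Over all features tested, 2.52% were called higher and 0.476% lower, and 18.8% passed the unadjusted threshold in either direction. Among the 10, Acod1 entered the test through the NDMA group alone. With only probes well above background on all 6 arrays kept, 9 pathway genes and 711 of 30415 features were called higher. Of the 11 tested coreceptors and chaperones (median -0.02) 1 rose, Ly86, which encodes MD-1, the partner of the receptor-like protein Cd180 on B cells and macrophages. Its log2 signals were -0.32, -0.09 and -0.23 in the controls and 1.04, 1.14 and 1.30 after NDMA, so the groups were far apart (2.59-fold, 1.37 ± 0.11, adjusted p = 0.00582). The call of Ly86 was kept in each of the 6 fits without 1 animal, and with a slide block it was 1.25 and did not pass (adjusted p = 0.0676). Cd180 itself differed by 0.55 ± 0.26 with overlapping groups (adjusted p = 0.313).

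The partners of Tlr4 did not pass. Ly96, which encodes MD-2, had -2.07, -2.11 and -2.27 in the controls and -1.98, -1.58 and -1.68 after NDMA (0.41 ± 0.13, adjusted p = 0.175). Cd14, which hands lipopolysaccharide to Tlr4, differed by 0.35 ± 0.16 (adjusted p = 0.287), and Lbp, the plasma protein that binds it first, by -0.05 ± 0.19 (adjusted p = 0.910). No probe was matched by name to Unc93b1, the chaperone of the endosomal receptors, nor to the adaptors Tirap and Ticam1.

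None of 3 tested adaptors passed (0 in limma), and 2 were higher at an unadjusted p below 0.05, with a median of 0.76. Myd88, the adaptor shared by most of the family, was higher by 0.20 ± 0.09 (adjusted p = 0.278). Its NDMA animals lay above all controls, as was so for 10.5% of all features measured on all arrays. Ticam2, the bridge from Tlr4 to TRIF, was higher by 0.94 ± 0.38 at a dim signal (adjusted p = 0.258). Of 18 signalling enzymes (median 0.07) 1 rose, Btk, the tyrosine kinase of B and myeloid cells. It had -4.51, -4.63 and -5.20 in the controls and -3.37, -3.49 and -3.11 after NDMA (2.75-fold, 1.46 ± 0.20, adjusted p = 0.0208), and 0.55 with normexp. The call of Btk was lost with the slide (0.194) or the replicate number (0.0930) as a block and without the filter on dim probes (0.0606). It was also lost without control 2 (0.0542), or NDMA animal 1 (0.0539), 2 (0.0609) or 3 (0.0740). The kinase Irak4 differed by 0.37 ± 0.08 (adjusted p = 0.0744) and the ubiquitin ligase Traf6 by 0.02 ± 0.11 (adjusted p = 0.954).

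Of 9 transcription factors (median 0.09) 2 rose. Irf8, a factor of macrophages, dendritic cells and B cells, had -3.82, -3.84 and -3.98 in the controls and -2.87, -2.78 and -2.56 after NDMA (2.21-fold, 1.14 ± 0.11, adjusted p = 0.00743). Its call was kept in each of the 6 fits without 1 animal, and it was 0.63 with normexp and 1.01 with a slide block, where it did not pass (adjusted p = 0.0936). With the replicate number as a block it did not pass either (adjusted p = 0.0530). Fos, an immediate early factor, differed by 0.94 ± 0.15 (adjusted p = 0.0296), and its call was lost with normexp (0.49, adjusted p = 0.0632), with the slide as a block (0.227) and in 5 of the 6 fits without 1 animal (0.106, 0.0980 and 0.0818 without controls 1 to 3 and 0.0710 and 0.0594 without NDMA animals 1 and 3).

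None of 13 negative regulators passed (0 in limma), and 5 were higher and 1 lower at an unadjusted p below 0.05 (median 0.19). Irak3, a kinase-dead inhibitor induced in macrophages, differed by 0.38 ± 0.11 (adjusted p = 0.144), Tollip, which restrains Irak kinases, by -0.21 ± 0.10 (adjusted p = 0.322), and Sigirr, an inhibitory receptor of the family's signalling domain, by -0.27 ± 0.09 (adjusted p = 0.181). For each of these 3 the groups did not overlap, as was so for 27.3% of all features measured on all arrays.

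Of 10 genes of endosomal processing (median 0.02) 2 rose. Pld4, a nuclease that degrades nucleic acid ligands in endosomes, had -1.62, -1.35 and -1.37 in the controls and -0.51, -0.53 and -0.21 after NDMA (2.04-fold, 1.03 ± 0.13, adjusted p = 0.0147). Its call was lost without control 1 (0.0532), with the replicate number as a block (0.0505) and with a slide block (0.94, adjusted p = 0.166). Ctss, a protease that takes part in cleaving endosomal receptors, differed by 0.68 ± 0.11 (1.60-fold, adjusted p = 0.0330) and lost its call with the slide as a block (0.280) and in each of the 6 fits without 1 animal (0.118, 0.0961 and 0.0792 without controls 1 to 3 and 0.0674, 0.0687 and 0.0802 without NDMA animals 1 to 3).

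None of 10 endogenous ligands passed (0 in limma), and 2 were higher at an unadjusted p below 0.05 (median 0.01). Hmgb1, a nuclear protein released by dying cells, differed by -0.11 ± 0.09 (adjusted p = 0.536), and S100a8 and S100a9, neutrophil proteins that bind Tlr4, by 0.03 ± 0.55 and -0.01 ± 0.50. Of 17 cytokines and enzymes that receptor signalling can induce, 4 rose. The median difference was 0.52 with Acod1, Il10 and Cd80, which were well above background in no control, at their bounds, and 0.86 as fitted. The 4 that rose were the chemokine Cxcl10 (3.71 ± 0.15), the itaconate-forming enzyme Acod1, the pentraxin Ptx3 (2.52 ± 0.20) and the costimulatory receptor Cd40 (0.87 ± 0.12, adjusted p = 0.0207). Acod1 was 4.81-fold higher at its bound and entered the test through the NDMA group alone, which by itself requires a difference. Cxcl10, Acod1 and Ptx3 kept their calls in each of the 6 fits without 1 animal, and these 3 were the pathway calls left with the slide as a block. With normexp Acod1 and Ptx3 differed by 1.05 and 1.28. Cd40 lost its call with the slide as a block (0.189) and without control 1 (0.0770) or NDMA animal 1 (0.0544), 2 (0.0781) or 3 (0.0708). Tnf and Il1b were higher by 0.86 ± 0.33 and 1.22 ± 0.45 without overlap of the groups and did not pass (adjusted p = 0.236 and 0.225). Over all features measured on all arrays, NDMA lay above control without overlap in 10.5%. Il6 was well above background on no array, and Il12b in 2 controls and 1 NDMA animal.

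**Figure D4:**
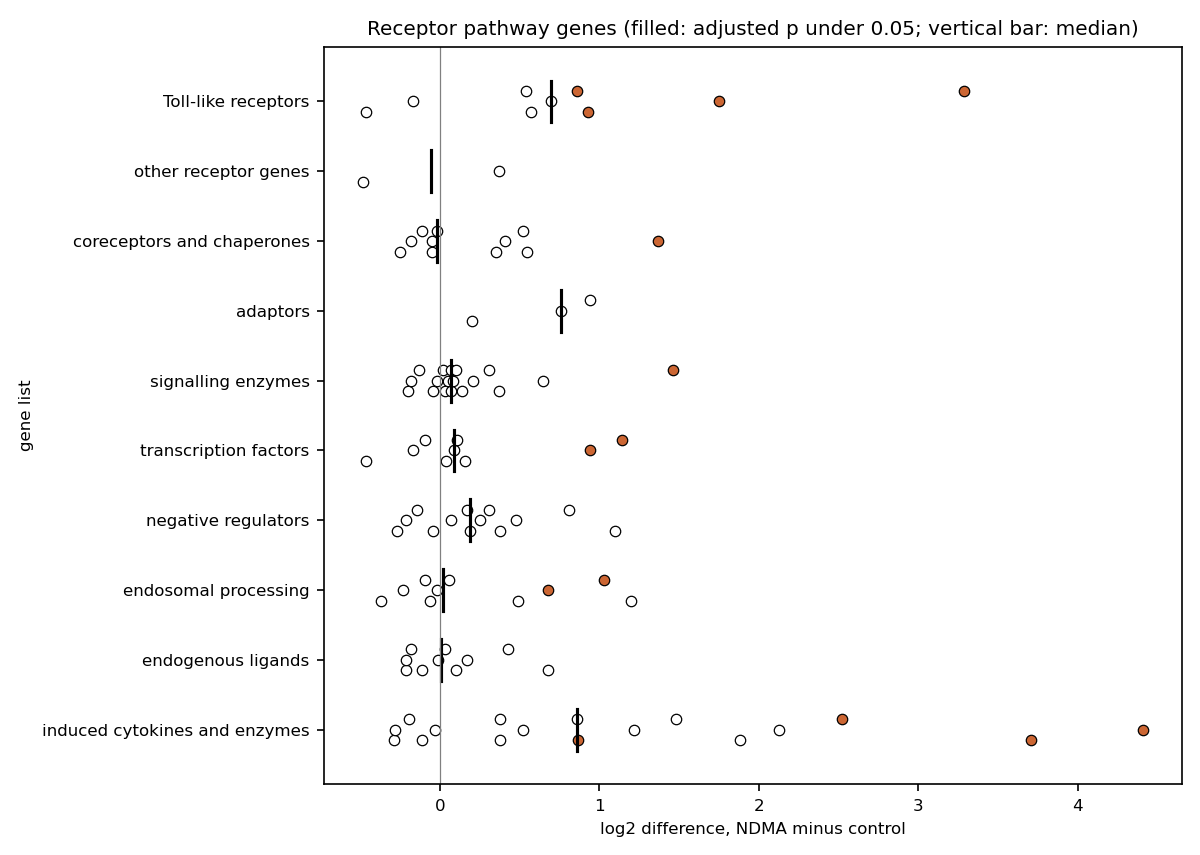
Log2 difference (x axis, NDMA minus control) of each tested gene of the receptor family and of the 9 pathway lists (y axis). Filled points passed and vertical bars are medians. Tlr10, Acod1, Il10 and Cd80 are drawn at fitted values rather than bounds. Among the pathway lists the adaptors and the induced cytokines and enzymes have medians of 0.76 and, as fitted, 0.86, and the other medians run from -0.05 to 0.19.

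Markers of macrophages and of T and NK cells rose with the 4 receptors, whereas neutrophil markers did not pass. Their part in the receptor values was not tested. Over all features tested, 2.52% were called higher and 0.476% lower. Markers not well above background in all 3 controls entered the test through the NDMA group alone, which by itself requires a difference. Of 14 tested macrophage markers 11 rose and 0 fell, with a median of 1.10, and their summed signal, in units of the 75th percentile, was 111 to 148 in the controls and 280 to 310 after NDMA. Lyz2, which made up 63.1% of the control sum, and C1qb differed by 1.23 ± 0.14 and 1.33 ± 0.12. Macrophage markers were on average 0.84, 0.99 and 1.11 above the control mean in NDMA animals 1 to 3. Of 7 dendritic cell markers 3 rose, namely Clec9a (2.06 ± 0.19), Batf3 (1.42 ± 0.12) and Xcr1. Xcr1 was well above background in no control and 2.41-fold higher at its bound. The list had a median of 0.78 and summed signals of 44.9 to 67.7 in the controls and 84.0 to 101 after NDMA. Cd74, the invariant chain of class II molecules, made up 99.3% of the control sum and differed by 0.78 ± 0.17 (adjusted p = 0.0816).

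Of 6 tested B cell markers 2 rose, Fcrla and Blk, with a median of 0.47. With Blk at its bound of 1.71-fold the median was 0.45. The summed signal of 1.17 to 1.49 in the controls and 1.23 to 1.40 after NDMA was mostly that of Pax5 (78.5% of the control sum), which differed by -0.39 ± 0.18. Fcrla differed by 0.81 ± 0.12, whereas Blk, Cr2 and Bank1 were well above background in no control. Of 9 T and NK cell markers 7 rose, with a median of 1.29 and summed signals of 2.91 to 3.51 and then 6.65 to 7.43, and Ncr1 was well above background on no array. Of 4 tested plasmacytoid dendritic cell markers 1 rose, Klra17, which entered the test through the NDMA group alone. It was well above background in no control and 3.18-fold higher at its bound. Tcf4, Ccr9 and Spib, well above background on every array, differed by 0.05 ± 0.14, 0.07 ± 0.09 and 0.39 ± 0.20. They did not pass in limma (adjusted p = 0.879, 0.689 and 0.347). The list had a median of 0.23 and summed signals of 2.81 to 3.00 and 2.67 to 3.44. None of 4 tested neutrophil markers passed (0 in limma, and 0 at an unadjusted p below 0.05), with a median of -0.05 and summed signals of 0.463 to 1.34 and 0.592 to 0.819. Elane, Ngp and Mmp8 were well above background on no array. Of 5 tested mast cell and basophil markers 2 rose, Cma1 (4.26-fold at its bound) and Mcpt1 (3.79 ± 0.71, adjusted p = 0.0495 in limma). Mcpt1 was well above background in 2 controls, so both entered the test through the NDMA group alone. The log2 signals of Mcpt1 were -0.90, -3.48 and -1.08 in NDMA animals 1 to 3. Kit, measured on all arrays, differed by 0.23 ± 0.14 and did not pass (adjusted p = 0.424). The median was 1.86 with Cma1 and Cpa3 at their bounds and 2.22 as fitted. The summed signals of 2.36 to 2.58 and 2.22 to 3.00 were mostly those of Tpsab1 (86.8% of the control sum), which differed by -0.18 (adjusted p = 0.307), and Cma1, Cpa3, Fcer1a and Ms4a2 were well above background in no control.

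**Figure D5:**
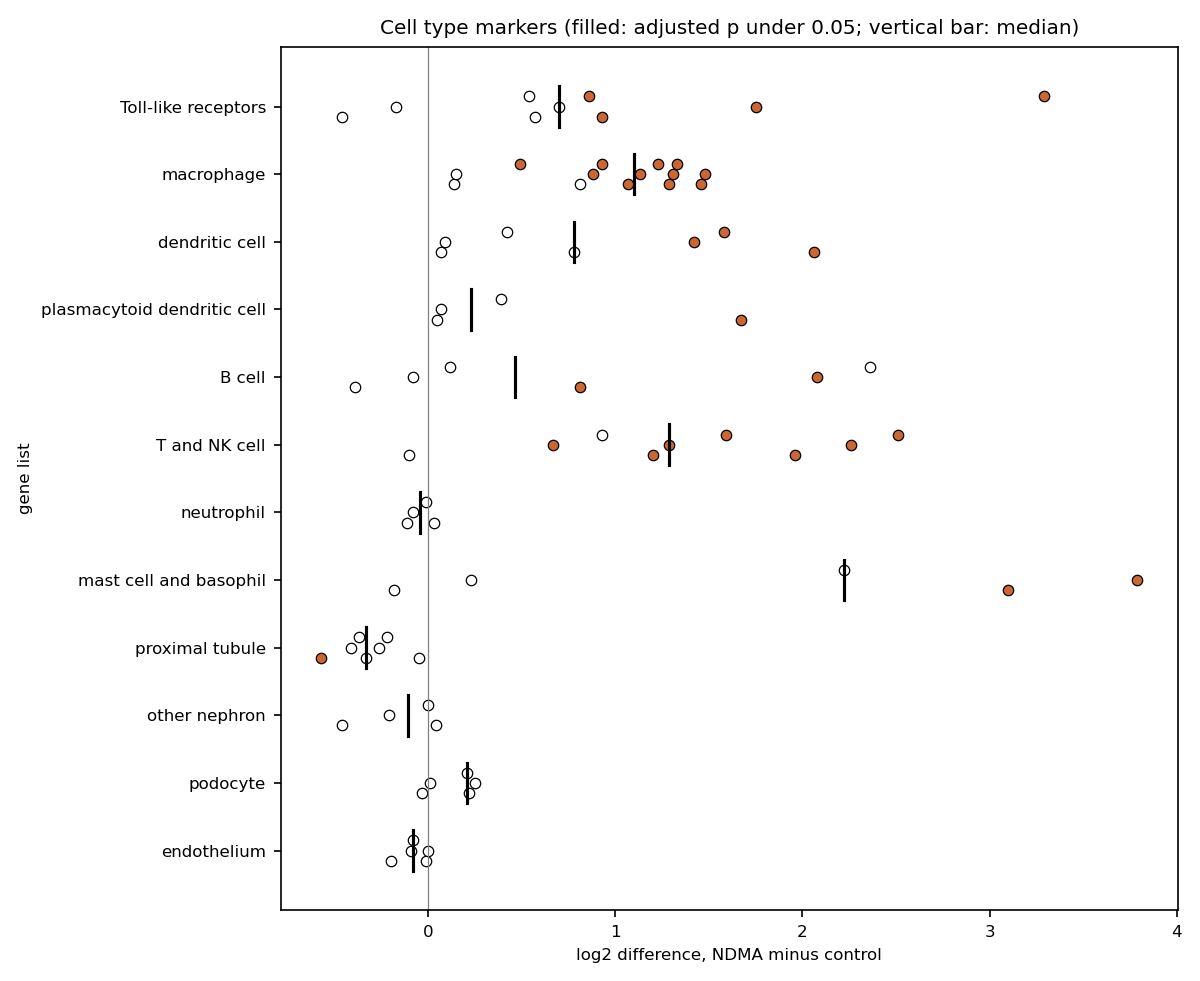
Log2 difference (x axis, NDMA minus control) of each tested receptor gene and of each tested marker of 11 cell types (y axis). Filled points passed and vertical bars are medians. Tlr10, Xcr1, Klra17, Blk, Cma1 and Cpa3 are drawn at fitted values rather than bounds. The medians are 1.10 for macrophage and 1.29 for T and NK cell markers, -0.05 for neutrophil and -0.33 for proximal tubule markers.

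Of the kidney's own cells, proximal tubule markers had a median of -0.33, with 1 of 7 lower in limma (Lrp2, the endocytic receptor megalin, -0.57 ± 0.10, adjusted p = 0.0448). With Lrp2 among them, 5 were lower at an unadjusted p below 0.05, a threshold passed by 18.8% of all features in either direction. In 6 all NDMA animals lay below all controls, against 16.8% of all features measured on all arrays. The proximal tubule markers had summed signals of 1348 to 1425 in the controls and 1023 to 1188 after NDMA. None of 4 tested genes of other nephron segments passed (0 in limma, 1 lower at an unadjusted p below 0.05), with a median of -0.10 and summed signals of 418 to 549 and 381 to 403. The summed signals of podocyte markers were 26.5 to 33.9 and 33.1 to 36.6. Endothelium markers had a median of -0.08 and summed signals of 33.0 to 37.7 and 28.1 to 35.7. None of the 5 genes of either list passed (0 in limma, and 0 at an unadjusted p below 0.05).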

How the data were processed

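Scanner files of 6 arrays were used. Per the file headers the authors extracted them with Agilent Feature Extraction 10.7.1.1 (10.7 per the submitters' processing notes), and the intensity they deposited is the Cy3 spot signal less background and less a spatial trend of the array. The deposited value table holds a ratio of that intensity to each array's 75th percentile (largest log2 gap 0.00173 over values above 0.1; column medians 0.112, 0.110 and 0.114 for controls and 0.115, 0.112 and 0.114 for NDMA). The array annotation names build rn4 and the gene table GRCr8, so no gene coordinates are given beyond those of the promoters.

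Processed intensities were taken to log2 minus the array's 75th percentile over 61657 non-control probes. Outlier spots (18 among probes kept) were set missing, and probes were kept if well above background on all 3 arrays of a group (43118). Each gene was read by its brightest probe. Names came from RefSeq by accession (27460 probes). Groups were taken from the sample titles and compared with limma 3.58.1 in R 4.3.3, two-sided, threshold 0.05. A gene not above background in any control has only a bound. The bound sets each control at no less than the lowest signal well above background on its array. The Klra17 controls exceeded that signal without being well above background, so such a bound is not a strict lower limit. The smallest exact permutation p for 3 against 3 animals is 0.1, so none is given. The number of arrays limits the precision.

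Members and lists were chosen with earlier results of these data known. Named genes are the members, direct partners fixed by name, up to 4 called genes per pathway list and direction, and the 2 markers per list of highest mean signal over the 6 arrays; further list members were named after their values were seen to complete a count. Of 201 listed genes 22 had no matched probe. Alternatives changed background correction (normexp with offset 50 on the deposited median intensity of spot and background), scaling, filter, probe rule, variance model, slide, replicate block or left out 1 animal.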

Additional observations from a re-analysis of the deposited data

How the results depend on the processing

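No difference of the 9 tested members or of the 10 called pathway genes changed sign under the 18 alternatives, except that Tlr10 and Acod1 were not fitted where all 6 arrays had to be well above background. Tlr5 is not among these members. The number of receptor genes called was 4; it was 0 without a filter on dim probes (6 at an unadjusted p under 0.05, and 45877 features tested), 0 with the slide as a block (4 unadjusted) and 0 on slide 1 alone (4 unadjusted), 2 with the replicate block, and 1 to 3 without 1 animal (Tlr10 without control 1, Tlr1 without control 2, Tlr6, Tlr10 and Tlr11 without control 3, Tlr6 without NDMA animal 2 or 3, and Tlr10 and Tlr11 without NDMA animal 1 were the calls left). Called pathway genes numbered 10, and 6, 3, 0 (20 unadjusted) and 4 in these 4 settings and 6 to 10 without 1 animal (6 without control 1, NDMA animal 1 or NDMA animal 3). Features called over the array numbered 957, and 371, 67, 0 (3502 unadjusted) and 351 in these settings and 364 to 749 without 1 animal, with 364 without control 1, 520 without control 2, 505 without control 3, 458 without NDMA animal 2 and 367 without NDMA animal 3. The share of calls that were higher was 84.1%, 66.7% with normexp (1091 features), 94.6% without the filter and 96.0% with the replicate block. With the replicate block, Tlr10 and Tlr11 kept their calls, and Tlr1 (adjusted p = 0.0683) and Tlr6 (0.0861) did not. Of the pathway genes Ly86, Cxcl10, Acod1 and Ptx3 kept their calls with it. Those of Btk (0.0930), Irf8 (0.0530), Fos (0.0751), Pld4 (0.0505), Ctss (0.0845) and Cd40 (0.0584) were lost. Without the filter on dim probes the pathway calls lost were Btk (0.0606), Fos (0.0843), Ctss (0.0946) and Cd40 (0.0640). Same-numbered animals share a replicate number in the sample titles, and their deviations correlated at 0.04, -0.05 and 0.03. These values cannot decide whether the animals were paired. The settings also differ in the number of features or animals, and the cause of these shifts was not tested.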

Other observations

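The patterns most like those of the receptors that rose were found by the distance between control-centred log2 signals over the 6 arrays, among 12159 named genes that passed the detection filter. It is a description over 6 animals in 2 groups, and many genes with a like group difference lie at similar distances. Nearest to Tlr1 were Sstr3, a somatostatin receptor (distance 0.13), Fcgr1a, the high-affinity immunoglobulin G receptor of macrophages (0.17), and Tapbp, the tapasin of peptide loading (0.17), which differed between the groups by 0.89 ± 0.13, 0.87 ± 0.13 and 0.87 ± 0.11. Nearest to Tlr6 were Cdkn3, a phosphatase of cyclin-dependent kinases, Rad18, a ubiquitin ligase of damage tolerance, and Lzts1 (0.20, 0.20 and 0.21), with differences of 0.93 ± 0.13, 0.78 ± 0.13 and 0.85 ± 0.10.

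Nearest to Tlr11 were Camk4, a calcium-dependent kinase of lymphocytes and neurons (distance 0.35), Espl1, which encodes the mitotic protease separase (0.36), and Ttk, a kinase of the spindle checkpoint (0.37), with differences of 1.81 ± 0.16, 1.72 ± 0.14 and 1.79 ± 0.24. Tlr10 had no near neighbour of this kind: the smallest distances were 1.19 for Ffar4, a fatty acid receptor, 1.38 for Ddias and 1.51 for Pimreg. The control SD of Tlr10 was 0.91, at signals below the background limit.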
